A study of Homo sapiens with 60 samples.

Results

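Goblet and secretory cell genes were followed as a set of 10 genes across 60 RNA-seq libraries of HT29, a human colorectal adenocarcinoma cell line. The set holds MUC2, AGR2, REG4, ATOH1, SPDEF, TFF3, CREB3L1, FCGBP, SPINK4 and TFF1. They were chosen by name, as rows of the count table whose Ensembl identifiers map to these symbols, with results of these data already known. They are 10 of the 60675 genes in the table, and all 10 were among the 16608 genes that passed the filter on low counts.

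The study exposed HT29 cells for 24 h to water extracts of medicinal plants and sequenced their RNA. The 20 groups held 3 libraries each. The vehicle group received DMSO, given as 0.1% in the sample labels and as 2% in the series' text, and the wortmannin group received 10 µM of wortmannin, an inhibitor of phosphoinositide 3-kinases, as the positive control. The 6 extracts were Zingiberis Rhizoma Recens (fresh ginger), Zingiberis Rhizoma (ginger), Pinelliae Tuber, Scutellariae Radix, Coptidis Rhizoma and Zizyphi Fructus. The doses were 500, 100 and 20 µg/mL, except for Coptidis Rhizoma, where they were 290, 58 and 11.6 µg/mL. These are called the high, medium and low dose, and high is 25 times low for every extract. According to the series' text, an extract whose IC20 lay under 500 µg/mL was given at that IC20 and at dilutions of it, so the Coptidis Rhizoma doses lie below those of the other extracts. All groups share the 1 cell line, and no label tells if replicates are separate cultures, so p-values cover only library-to-library spread, some or all of which may be technical. The vehicle libraries carry a set of sample codes that no extract or wortmannin library shares. A difference from vehicle, that of wortmannin included, cannot be told apart from a difference between sets. High against low dose of 1 extract lies inside 1 set of codes and is used as the main comparison.

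Goblet cells are the mucus-secreting cells of the intestinal lining. The transcription factor ATOH1 commits intestinal progenitors to the secretory lineage when Notch signalling is low, and SPDEF and CREB3L1 act later, in maturation and in the build-up of the secretory pathway. The gel-forming mucin MUC2 is folded in the endoplasmic reticulum with the help of the disulfide isomerase AGR2, is packed with the mucus protein FCGBP, and is secreted together with small peptides such as TFF3. HT29 cells are known to express mucins and to give rise to mucus-secreting sublines.

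The 4 members that differed most between doses of Coptidis Rhizoma, apart from the low-count gene SPINK4, were MUC2, FCGBP, REG4 and ATOH1, and the 250 bases before the RefSeq start of each are printed here because these genes fell together there (RefSeq promoter table, build GRCh38.p14, 5′ to 3′ on the gene's strand). Capitals mark matches, on either strand, to 8 short motifs searched by letters: the E-box CAGNTG of the class that ATOH1 binds, the ACGTG core of XBP1 and CREB3-family factors, the endoplasmic reticulum stress element, the CDX2-type TTTATNG, the forkhead-type TGTTTNC, the aryl hydrocarbon receptor core GCGTG, the NRF2 core TGACNNNGC, and the TATA box TATAAA.
MUC2, chr11:1074624-1074873, plus strand: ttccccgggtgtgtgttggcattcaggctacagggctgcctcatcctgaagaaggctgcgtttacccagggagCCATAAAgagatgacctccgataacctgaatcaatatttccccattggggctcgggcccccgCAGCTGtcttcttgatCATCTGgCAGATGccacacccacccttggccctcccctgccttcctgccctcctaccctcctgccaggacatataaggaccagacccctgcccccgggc
FCGBP, chr19:39934635-39934884, minus strand: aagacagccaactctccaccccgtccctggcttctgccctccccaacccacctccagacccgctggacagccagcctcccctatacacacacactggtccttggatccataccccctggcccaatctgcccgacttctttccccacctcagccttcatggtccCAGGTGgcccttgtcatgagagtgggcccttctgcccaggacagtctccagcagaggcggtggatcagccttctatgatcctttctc
REG4, chr1:119811461-119811710, minus strand: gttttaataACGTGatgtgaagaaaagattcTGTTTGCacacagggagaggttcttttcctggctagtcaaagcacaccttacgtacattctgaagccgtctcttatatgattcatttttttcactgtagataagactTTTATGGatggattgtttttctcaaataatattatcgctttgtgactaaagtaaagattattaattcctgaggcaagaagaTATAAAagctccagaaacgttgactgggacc
ATOH1, chr4:93828503-93828752, plus strand: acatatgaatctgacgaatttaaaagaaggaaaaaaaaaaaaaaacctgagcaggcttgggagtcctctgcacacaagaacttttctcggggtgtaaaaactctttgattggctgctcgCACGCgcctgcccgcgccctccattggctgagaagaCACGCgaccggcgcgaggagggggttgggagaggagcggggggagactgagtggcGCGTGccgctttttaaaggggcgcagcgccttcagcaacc
MUC2 held 3 E-box matches, with first bases at -115, -99 and -92 counted back from the start site, and 1 CDX2-type match at -177. FCGBP held 1 E-box match, at -87. REG4 held no E-box in this stretch, but the ACGTG core at -241, a forkhead-type match at -219, a CDX2-type match at -112 and a TATA box at -31. ATOH1 held 3 matches to GCGTG, at -131, -95 and -40. Of the 8 members in the promoter table (TFF1 and TFF3 are the other two of the 10), 5 held an E-box within 300 bases (250 before and 50 after the start), against 49.9% of 35116 promoters. The ACGTG core was in 2 of 8 members and 21.4% of promoters, TTTATNG in 3 and 9.73%, TGTTTNC in 1 and 18.0%, GCGTG in 2 and 36.5%, and TATAAA in 2 and 11.5%. TGACNNNGC, in 13.3% of promoters, and the endoplasmic reticulum stress element, in 0.0769%, were in 0 of 8. In SPINK4, outside the printed set, the CDX2-type and TATA matches share bases. A match describes the letters and does not show binding.

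The libraries held 11.1 to 34.4 M counts (median 23.4 M). Levels are in CPM, counts scaled to a common library size with TMM factors. All 10 markers of colon epithelium averaged at least 1 CPM, and 8 of 15 further goblet-cell products did. Another 4 of the 15, CLCA1, ZG16, ITLN1 and BEST2, averaged under 0.1 CPM and were not tested. The 10 markers of non-epithelial cells summed to 10.8 to 19.3 CPM in a library, and 6 of them averaged under 0.1 CPM. The 12 enteroendocrine markers summed to 1.52 to 5.76 CPM. In bulk RNA, fewer cells of a type and less RNA per cell cannot be told apart. On principal component 2 of all genes, which held 8.55% of the variance, 4 libraries lay apart: replicate 1 of vehicle, replicate 1 of the low dose of fresh ginger, replicate 2 of the high dose of ginger and replicate 3 of the high dose of Zizyphi Fructus. Their ribosomal protein share was 5.85 to 7.57%. In all 4, AGR2 and REG4 were the highest and FCGBP the lowest of their groups of 3; ATOH1, CREB3L1, SPINK4 and TFF1 were the highest in some and the lowest in others, and a library of 3 is more often at an extreme than in the middle. The largest such gap was in Zizyphi Fructus high replicate 3, where MUC2 was at 17.0 CPM against 34.4 and 36.1 in the other libraries of its group, and AGR2 at 287 CPM against 188 and 207. In all 4, in the order above, the summed level of 12 other mucins was also the lowest of its group (329, 361, 288 and 242 CPM). MUC2 and FCGBP have gene models of 12667 and 12961 exonic bases, and AGR2 and REG4 of 2845 and 3493. The part of transcript length was not tested. Calls that the 4 libraries change are given with and without them below.

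Compared per length of gene model, AGR2 was the most abundant member (mean over all libraries 65.4 CPM per kb), followed by CREB3L1 (41.1 CPM per kb) and SPDEF (11.1 CPM per kb). REG4 and TFF3 followed at 6.17 and 6.16 CPM per kb. MUC2 (2.51 CPM per kb), FCGBP (2.41) and ATOH1 (1.81) were lower, and TFF1 and SPINK4 lowest at 0.910 and 0.891 CPM per kb. The last 2 rest on few reads, between 4 and 25 counts a library for TFF1 and between 1 and 29 for SPINK4. 8 of the 10 had their lowest group mean with Coptidis Rhizoma high; CREB3L1 had it with Scutellariae Radix high, and TFF1 with wortmannin.

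Most of the 19 steps between neighbouring groups in that order lay between groups whose libraries overlapped. For MUC2, only the lowest step separated the libraries: Coptidis Rhizoma high held 4.00 to 7.11 CPM, and the 57 other libraries held 17.0 to 45.8 CPM. For AGR2 and REG4, 2 steps separated neighbouring groups, for ATOH1 and FCGBP 3, for CREB3L1 2 and for TFF3 1. For SPDEF, SPINK4 and TFF1 no step did. The other 19 groups' mean for ATOH1 ran from 2.05 to 5.01 CPM, with Scutellariae Radix high lowest and Scutellariae Radix medium next. The plot of levels by group shows every library.

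**Figure D1:**
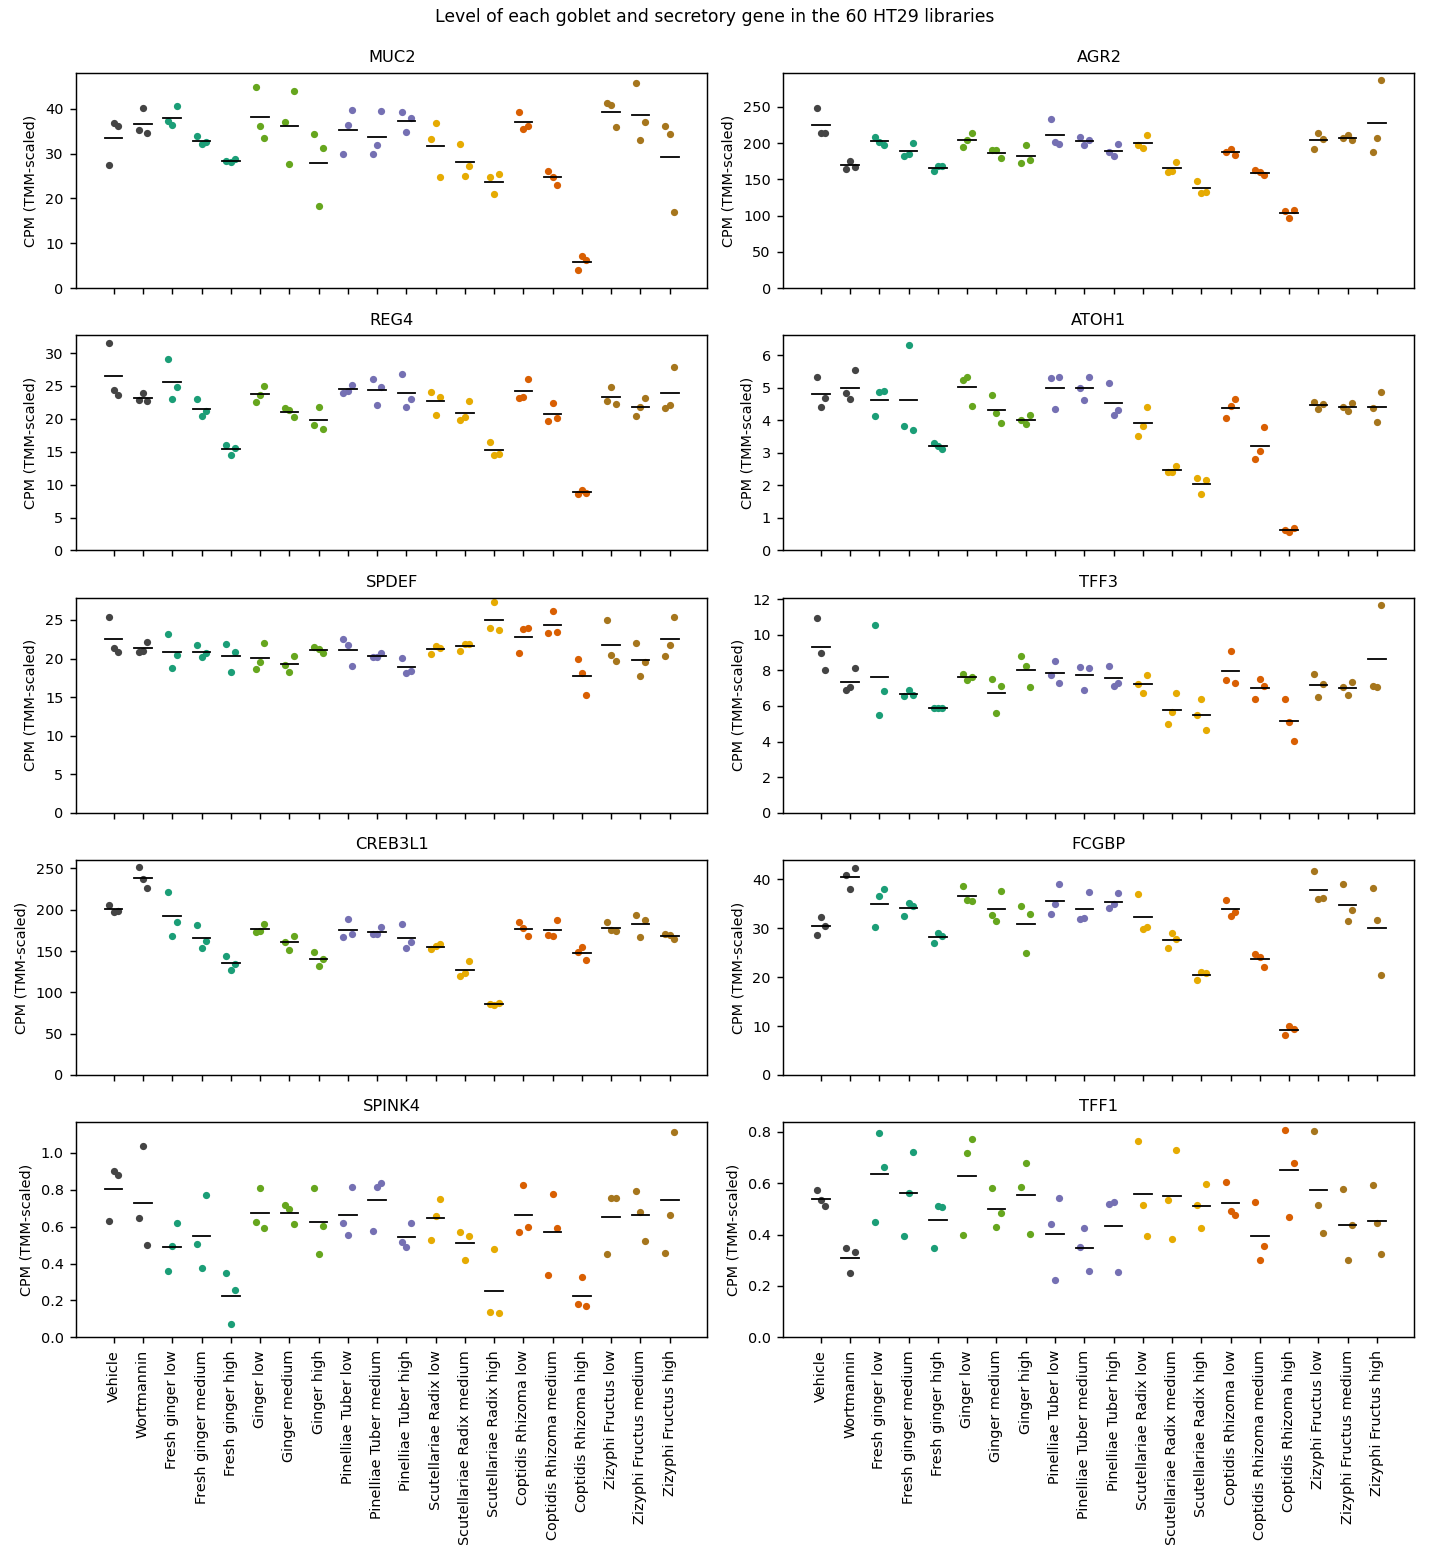
Level in CPM (TMM-scaled, linear axis from 0) of each of the 10 genes in all 60 libraries; each point is 1 library, the bar is the mean of the 3 libraries of a group, and colours mark the treatment. The 3 Coptidis Rhizoma high libraries lie under all others for MUC2, AGR2, REG4, ATOH1 and FCGBP, and the 3 Scutellariae Radix high libraries under all others for CREB3L1.

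At the high dose of Coptidis Rhizoma, the rhizome of a berberine-containing plant, 9 of the 10 goblet and secretory genes fell against the low dose and none rose. ATOH1, MUC2, FCGBP, SPINK4 and REG4 had the largest fitted changes, in that order, and SPDEF and CREB3L1 the smallest of the 9. TFF1 did not pass the test. Across all genes 25.3% fell and 27.1% rose in this comparison, and the median log2 change was -1.15 for the 10 members and 0.00 for all 16608 genes.

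MUC2 (ENSG00000198788, chr11:1074875-1110511), the gel-forming mucin, was at 39.4, 35.5 and 36.0 CPM at the low dose, 26.1, 24.9 and 23.1 CPM at the medium dose, and 4.00, 7.11 and 6.19 CPM at the high dose. No high-dose library came near a low-dose one. The fitted log2 change was -2.66 (SE 0.22), which leaves 15.8% of the low-dose level, with an adjusted p of 1.5e-13. FCGBP (chr19:39863323-39934626), which binds the mucin network, went from 35.8, 32.5 and 33.4 CPM to 8.17, 9.96 and 9.36 CPM, a log2 change of -1.88 (SE 0.13, adjusted p 1.1e-16). The 3 high-dose FCGBP libraries lay close together and far below the low dose.

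ATOH1 (chr4:93828753-93830964), the secretory lineage factor, was at 4.07, 4.44 and 4.64 CPM at the low dose and at 0.629, 0.577 and 0.680 CPM at the high dose. This was the largest change among the members, with log2 -2.79 (SE 0.17) and 14.5% of the low-dose level left (adjusted p 1.02e-19), and it rests on 14, 16 and 20 counts at the high dose. SPDEF (chr6:34537802-34556333), which drives goblet cell maturation, fell much less, from 20.7, 23.9 and 23.9 CPM to 20.0, 18.1 and 15.2 CPM. The SPDEF groups did not overlap, but by a small margin, and the log2 change was -0.36 (SE 0.09, adjusted p 0.000732). CREB3L1 (chr11:46277661-46321422), a membrane-bound factor released from the endoplasmic reticulum, fell from 185, 178 and 168 CPM to 148, 155 and 139 CPM, a log2 change of -0.26 (SE 0.07, adjusted p 0.00138).

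AGR2 (chr7:16791811-16833433), needed for MUC2 folding, fell from 188, 191 and 183 CPM to 107, 97.4 and 108 CPM. That is 55.6% of the low-dose level, with log2 -0.85 (SE 0.08, adjusted p 6.87e-13) and no overlap. REG4 (chr1:119794018-119811660), a secreted C-type lectin, fell from 23.1, 23.4 and 26.1 CPM to 8.58, 9.13 and 8.78 CPM, log2 -1.45 (SE 0.10, adjusted p 8.17e-18). Its high-dose libraries were the 3 lowest of all 60. The trefoil peptide TFF3 (chr21:42311667-42315651), which protects the mucosal surface, was at 7.46, 9.10 and 7.30 CPM and then at 6.38, 5.09 and 4.01 CPM, log2 -0.65 (SE 0.16, adjusted p 0.00065). SPINK4 (chr9:33218365-33248567), a secreted protein with a protease-inhibitor domain, had 16, 27 and 15 counts at the low dose and 4, 9 and 5 at the high dose, log2 -1.54 (SE 0.38, adjusted p 0.000602). The trefoil peptide TFF1 (chr21:42362282-42366594) was at 0.607, 0.490 and 0.476 CPM and then at 0.808, 0.469 and 0.680 CPM, and the groups overlapped (log2 0.30, 95% interval -0.31 to 0.91). The 9 calls held with every library left out in turn and in each alternative fit.

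Other measures moved with the same libraries, and their part in the result was not tested. Mitochondrially encoded genes took 3.77 to 3.99% of counts at the high dose of Coptidis Rhizoma, against 11.8 to 12.2% at its low dose and 7.67 to 11.9% in all groups outside this extract. Ribosomal protein genes took 5.94 to 6.71% of counts at the high dose and 4.88 to 5.16% at the low dose. All 10 mitosis genes of a fixed list fell (median log2 -0.33), and their summed level went from 2291 to 2403 CPM at the low dose to 1600 to 1952 CPM at the high dose. The 10 colon epithelium markers summed to 10402 to 11147 CPM at the high dose and 11666 to 12421 CPM at the low dose. That sum is mostly KRT8 and KRT18 (means over all libraries 6409 and 3545 CPM). Of the 10 markers 2 rose and 4 fell. GPA33 fell from 4.86 ± 0.241 to 1.01 ± 0.481 CPM (log2 -2.31, edgeR adjusted p 9.38e-16), and KRT19 and VIL1 changed by log2 -0.55 and -0.48. Non-epithelial markers summed to 13.8 to 14.4 CPM at the high dose and 15.1 to 15.6 CPM at the low dose.

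Related gene lists were counted in the same comparison, in which 25.3% of all genes fell and 27.1% rose, and list counts near those shares say nothing particular of a list. Named genes come from those with the smallest p over the 6 extracts in each list, though not all such genes are printed. MUC5AC, MUC17, GCNT3, KLK1, CAPN9, DLL4, FOXA2 and HES1 were added after their values were seen. Of 11 tested other mucins, 8 fell and none rose (median log2 -0.88). MUC5AC, a gel-forming mucin of the stomach, fell from 146 to 68.0 CPM on average (log2 -1.10, adjusted p 2.92e-05), and the membrane mucins MUC13 and MUC17 changed by log2 -0.54 and -1.81. MUC3A fell from 20.8 ± 1.12 to 11.4 ± 0.444 CPM (SD, n = 3 libraries; log2 -0.87), but MUC3A and MUC20 have near-identical copies among which the authors' counting could split reads. Of 18 enzymes of mucin-type O-glycosylation, which add the sugar chains of mucins, 11 fell and 1 rose (median -0.43). The initiating enzymes GALNT12 and GALNT2 went from 55.2 to 33.1 CPM and from 60.9 to 42.8 CPM, the sulfotransferase CHST4 from 4.96 to 1.96 CPM, and the branching enzyme GCNT3 rose by 0.29. Of 11 further goblet-cell products, 6 fell and 2 rose (median -0.46): AGR3, a paralogue of AGR2, fell from 11.1 ± 0.943 CPM to 11.9% of that level (log2 -3.07, adjusted p 3.27e-23), and BCAS1 from 71.9 ± 5.19 to 14.7 ± 0.520 CPM (log2 -2.29, adjusted p 2.04e-31). KLK1 and CAPN9 rose.

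Of 21 genes of endoplasmic reticulum folding and export, 9 rose and 5 fell (median 0.08). The stress sensor ERN1 rose from 16.2 ± 0.444 to 57.1 ± 1.14 CPM (log2 1.82), and XBP1, the transcription factor whose RNA it splices, from 180 ± 2.63 to 438 ± 29.1 CPM (log2 1.28). The disulfide isomerase PDIA4 fell from 332 ± 3.81 to 203 ± 6.61 CPM (log2 -0.71). Of 18 lineage and Notch genes, 5 rose and 9 fell (median -0.15). KLF4, a factor of terminal differentiation, rose by log2 1.99, FOXA3 by 1.12 and the Notch ligand JAG1 by 0.87, whereas the ligand DLL4 (log2 -1.32) and the factor FOXA2 (log2 -0.96) fell. HES1, the Notch target that represses ATOH1, also fell, by 0.49 on the log2 scale (adjusted p 0.0196). Enteroendocrine genes, which mark another ATOH1-dependent lineage, fell in 4 of 6 tested (median -1.46). NEUROG3 went from 1.05 ± 0.0227 to 0.116 ± 0.0415 CPM and PAX4 from 0.938 ± 0.230 to 0.179 ± 0.116 CPM. Both rest on few reads at the high dose, and 5 of the 12 enteroendocrine markers averaged under 0.1 CPM. Of 9 tested absorptive enterocyte genes 6 fell and 1 rose (median -0.55). FABP1 fell from 1.78 to 0.462 CPM, with few reads at the high dose, and KRT20 rose by 0.30 on the log2 scale. Of the 3 tested Paneth cell genes PRSS2 rose and LYZ fell, and of the 3 tuft cell genes AVIL rose and POU2F3 and TRPM5 fell.

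At the high dose of Scutellariae Radix, the root of a flavone-rich mint, 6 of the 10 members fell against the low dose and none rose: SPINK4, ATOH1, CREB3L1, FCGBP, REG4 and AGR2. Across all genes 8.42% fell and 7.92% rose. The median log2 change was -0.56 for the members and -0.01 for all genes. CREB3L1 was at 152, 156 and 159 CPM at the low dose, 120, 124 and 138 CPM at the medium dose and 86.3, 84.3 and 87.0 CPM at the high dose. The 3 groups did not overlap, and the high-dose CREB3L1 level was 55.2% of the low-dose level (log2 -0.86, SE 0.07, adjusted p 1.17e-13). ATOH1 was at 3.53, 3.84 and 4.40 CPM, then 2.41, 2.41 and 2.59 CPM, then 2.24, 1.75 and 2.16 CPM. Its medium and high doses lay close together, both under the low dose, and the change from low to high was log2 -0.93 (SE 0.14, adjusted p 1.75e-06).

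AGR2 fell from 197, 193 and 210 CPM to 148, 132 and 133 CPM with Scutellariae Radix (log2 -0.54, SE 0.08, adjusted p 7.11e-07). REG4 fell from 24.0, 20.6 and 23.4 CPM to 16.5, 14.5 and 14.6 CPM (log2 -0.57, SE 0.10, adjusted p 8.92e-06), and FCGBP from 37.0, 29.8 and 30.2 CPM to 19.4, 21.0 and 20.9 CPM (log2 -0.66, SE 0.12, adjusted p 8.38e-05). In all of these the high-dose libraries lay below every low-dose library. SPINK4 had 9, 14 and 21 counts at the low dose and 4, 9 and 4 at the high dose (log2 -1.54, SE 0.40, adjusted p 0.00435). The SPINK4 call ended without high replicate 1 (adjusted p 0.0569) or high replicate 3 (adjusted p 0.0586). MUC2 itself did not pass the test. Its levels of 33.2, 36.7 and 24.9 CPM and of 24.8, 20.9 and 25.5 CPM overlapped (log2 -0.40, 95% interval -0.79 to 0.00, adjusted p 0.186). SPDEF was the member with the opposite sign, at 20.6, 21.7 and 21.4 CPM and then 23.9, 27.3 and 23.7 CPM. Its groups did not overlap, but the log2 change of 0.23 missed the threshold (adjusted p 0.0876), as did that of TFF3 (-0.41, adjusted p 0.0866). Without the 4 libraries that stood apart, none of which belongs to this extract, SPDEF passed as higher (adjusted p 0.0325) and TFF3 as lower (adjusted p 0.0123), for 8 members called. TFF3 also passed without high replicate 2 of this extract (adjusted p 0.0485). TFF1 was at a log2 change of -0.04.

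In the Scutellariae Radix comparison SYTL2, ST6GALNAC1, ST3GAL1, MUC17, CREB3L2, DLL4 and FOXA2 are named after their values were seen. Of the related lists, 6 of 11 further goblet-cell products fell and 1 rose (median log2 -0.45). BCAS1 went from 73.7 to 32.8 CPM and ERN2, the epithelial sensor of unfolded protein found in goblet cells, from 16.8 ± 0.126 to 8.24 ± 0.465 CPM (log2 -1.03, adjusted p 3.87e-14). SYTL2, an adaptor of granule secretion, went from 36.3 to 18.7 CPM. Of 11 other mucins, 3 fell and 1 rose (median 0.14), with MUC20 at log2 -0.49 and MUC17 at 0.72. Of 18 O-glycosylation enzymes, 5 fell and 4 rose (median -0.17): ST6GALNAC1 fell from 2.71 to 1.13 CPM and ST3GAL1 rose from 425 to 637 CPM. Of 21 endoplasmic reticulum genes, 8 rose and none fell (median 0.07), each by less than CREB3L2, a paralogue of CREB3L1, at log2 0.52. Of 18 lineage and Notch genes, 5 fell and 2 rose (median -0.06): DLL4 changed by log2 -1.29, FOXA2 by -0.58, KLF4 by 0.65 and JAG1 by 0.64. Markers of other cell types moved in the same libraries, and their part in the result was not tested. Of 6 tested enteroendocrine genes PAX4 fell (log2 -0.73). Of 9 absorptive enterocyte genes 3 fell (SI, CA2 and VIL1) and KRT20 rose, from 257 ± 9.73 to 379 ± 11.7 CPM (adjusted p 2.47e-14). The summed level of that list went from 446.5 to 481.7 CPM at the low dose to 531.1 to 552.6 CPM at the high dose. KRT20 and VIL1 make up most of that sum (means over all libraries 272 and 180 CPM), so it does not describe the list as a whole. Of 3 tuft cell genes TRPM5 fell, from 1.27 ± 0.291 to 0.382 ± 0.0776 CPM (edgeR adjusted p 0.000185), with few reads at the high dose. No Paneth cell gene of 3 passed by edgeR. The mitochondrial share was 8.52 to 8.66% at the high dose and 7.67 to 8.55% at the low dose, and of the 10 mitosis genes 2 rose and none fell, so the mitosis genes that passed had the opposite sign to those with Coptidis Rhizoma.

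The changes with Scutellariae Radix and Coptidis Rhizoma were compared by the difference of their high-against-low changes. The doses differ (500 against 20 µg/mL and 290 against 11.6 µg/mL), so the comparison covers the same dose ratio but not the same doses. By the series' text the Coptidis Rhizoma doses were set from its IC20, so equal inhibition of the cells by the high doses cannot be assumed. The difference passed the test for 7 of 10 members, against 38.8% of all genes. The Coptidis Rhizoma change was the lower by log2 2.26 for MUC2 (SE 0.30, adjusted p 4.72e-08), by 1.86 for ATOH1 (SE 0.23, adjusted p 3.9e-09), by 1.22 for FCGBP and by 0.88 for REG4. SPDEF differed by 0.59 and AGR2 by 0.31 in the same direction. CREB3L1 differed the other way, by -0.59 (SE 0.10, adjusted p 3.27e-06): it fell more with Scutellariae Radix. For TFF3 the difference was 0.23 with a 95% interval of -0.23 to 0.70, for TFF1 -0.34 (-1.24 to 0.56) and for SPINK4 0.01 (-1.46 to 1.47), and none of these passed. The AGR2 difference was no longer called without Scutellariae Radix high replicate 1 or without Coptidis Rhizoma high replicate 2 (adjusted p up to 0.0791).

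**Figure D2:**
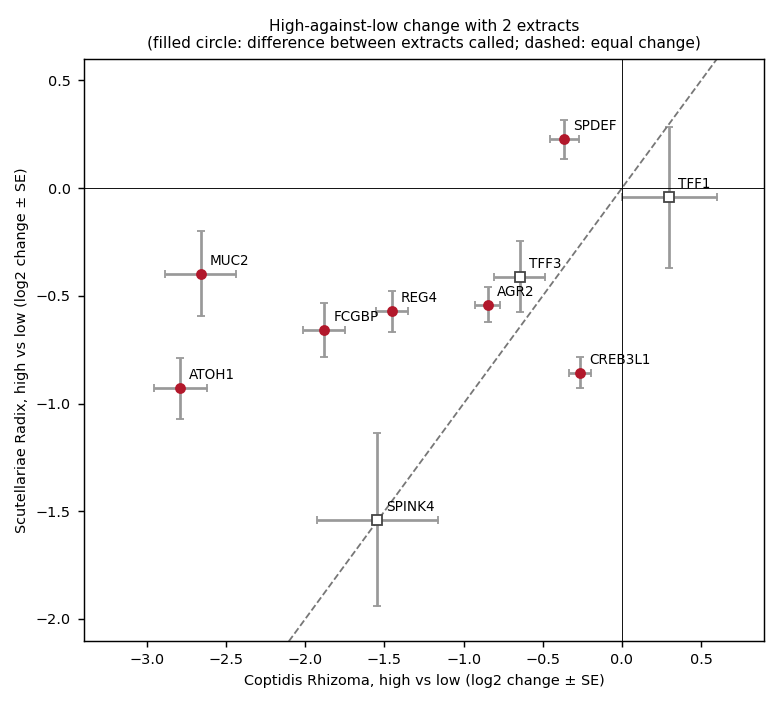
High-against-low log2 change of each gene with Coptidis Rhizoma (x axis) and with Scutellariae Radix (y axis), each with its SE; filled circles mark a difference between the extracts at adjusted p under 0.05 and the dashed line marks equal change. MUC2 and ATOH1 lie far left of the line at x values of -2.66 and -2.79, and CREB3L1 lies below it at a y value of -0.86.

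With fresh ginger, 4 members fell from low to high dose and none rose: REG4, ATOH1, CREB3L1 and AGR2. Across all genes 0.584% fell and 1.21% rose. All 10 members had a log2 change below 0 (median -0.46, against -0.01 for all genes). REG4 was at 29.1, 23.0 and 24.9 CPM and then at 16.0, 14.5 and 15.6 CPM, log2 -0.72 (SE 0.10, adjusted p 4.59e-06). CREB3L1 was at 222, 168 and 186 CPM and then at 144, 127 and 134 CPM, log2 -0.50 (SE 0.07, adjusted p 6.36e-06). Both genes had no overlap between doses, although their highest low-dose value came from replicate 1, a library that stood apart, and without the 4 such libraries both kept the call.

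ATOH1 with fresh ginger was at 4.14, 4.87 and 4.89 CPM and then at 3.31, 3.23 and 3.12 CPM, log2 -0.54 (SE 0.14, adjusted p 0.0361). AGR2 was at 208, 202 and 198 CPM and then at 161, 169 and 168 CPM, log2 -0.29 (SE 0.08, adjusted p 0.049). Neither pair of groups overlapped, but both calls lay near the threshold. The ATOH1 call ended without any 1 of high replicates 1, 2 or 3 or low replicate 3 (adjusted p 0.073 to 0.156), and also with DESeq2 (0.0514), with no filter on low counts (0.0844) and in the linear trend on log dose (0.0501). It ended for AGR2 without any 1 of the 3 high replicates or low replicates 1 or 3 (adjusted p 0.0815 to 0.177). Only REG4 was called when the fit used the libraries of this comparison alone, where AGR2, ATOH1 and CREB3L1 had adjusted p of 0.261, 0.43 and 0.112. MUC2 (38.0 ± 2.25 against 28.4 ± 0.246 CPM, SD, n = 3 libraries each, log2 -0.42, adjusted p 0.316) and FCGBP (log2 -0.33, adjusted p 0.192) did not pass. FCGBP passed as well (log2 -0.41, adjusted p 0.011) once the 4 libraries that stood apart were left out.

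With ginger, CREB3L1 alone fell, from 173, 174 and 182 CPM to 149, 132 and 141 CPM (log2 -0.33, SE 0.07, adjusted p 0.00737), among 0.397% of genes that fell and 0.518% that rose. The groups did not overlap. The median of the members was -0.24 and of all genes 0.01. The call ended without ginger high replicate 2 (adjusted p 0.0875). MUC2 was at 44.8, 36.1 and 33.4 CPM and then at 34.3, 18.3 and 31.1 CPM, where the lowest value belongs to that same library. Without the 4 libraries that stood apart, AGR2 (log2 -0.23, adjusted p 0.0179) and REG4 (log2 -0.34, adjusted p 0.0147) passed as lower too, which made 3 members. The difference between fresh ginger and ginger passed for 0 of 10 members and 0% of genes by edgeR, and for 0 of both by DESeq2. REG4 was the 1 member with an unadjusted p under 0.05, with a difference of -0.45 (95% interval -0.73 to -0.17, adjusted p 0.275). Without fresh ginger low replicate 2 that difference passed (-0.50, adjusted p 0.0309), and the number of genes called went from 0 to 1053. For CREB3L1 the interval of the difference was -0.38 to 0.03 and for AGR2 -0.35 to 0.11.

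**Figure D3:**
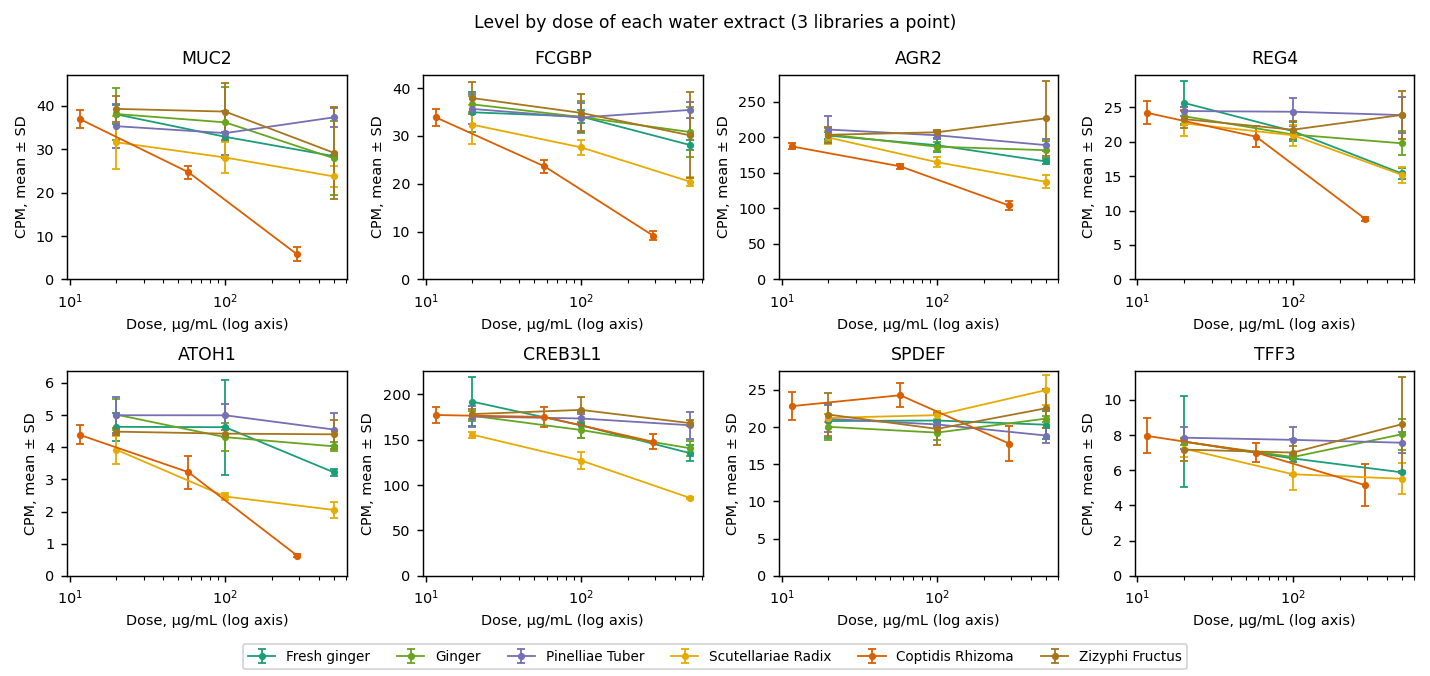
Mean level in CPM (linear axis from 0, bars ± SD of 3 libraries) against dose in µg/mL on a log axis for 8 genes, with 1 line per extract. With Coptidis Rhizoma, MUC2 ran from 37.0 over 24.7 to 5.77 CPM, while with Pinelliae Tuber it ran from 35.3 over 33.7 to 37.4 CPM.

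With Pinelliae Tuber and Zizyphi Fructus no member passed from low to high dose by edgeR or DESeq2. Across all genes 0.0421% passed with Pinelliae Tuber and 0.0482% with Zizyphi Fructus. With Pinelliae Tuber no member had an unadjusted p under 0.05, and the median log2 change was -0.06. MUC2 there was at 29.8, 36.4 and 39.8 CPM and then at 39.2, 34.9 and 38.0 CPM, with an interval of the change from -0.32 to 0.45. ATOH1 had an interval of -0.40 to 0.12 and CREB3L1 of -0.22 to 0.06. With Zizyphi Fructus 2 members, MUC2 and FCGBP, had an unadjusted p under 0.05, and the median log2 change of the members was 0.00. MUC2 was at 41.2, 40.8 and 35.9 CPM and then at 36.1, 34.4 and 17.0 CPM (log2 -0.42, adjusted p 0.167). FCGBP was at 41.7, 35.9 and 36.1 CPM and then at 38.2, 31.7 and 20.5 CPM (log2 -0.33, adjusted p 0.0956). In both genes the lowest value was that of replicate 3 of the high dose, a library that stood apart, and at least 1 of the other high-dose libraries lay within the range of the low dose. When replicate 1 of the Zizyphi Fructus high dose was left out, MUC2 (edgeR adjusted p 0.0325), FCGBP (0.00193) and AGR2 (higher, 0.0097) passed. The number of genes called then rose from 8 to 4375. Without replicate 2, and without replicate 3, 0 members passed.

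The medium dose was set against the low dose, a comparison that shares the low-dose libraries with the one above. With Scutellariae Radix 3 members fell, ATOH1 (log2 -0.68, SE 0.14, adjusted p 0.000983), CREB3L1 (-0.29, SE 0.07, adjusted p 0.00806) and AGR2 (-0.28, SE 0.08, adjusted p 0.0362), while 1.57% of genes fell and 1.78% rose. The CREB3L1 and AGR2 calls ended without medium replicate 1, medium replicate 2 or low replicate 3 (adjusted p 0.0529 to 0.171), and ATOH1 kept its call. With Coptidis Rhizoma FCGBP alone fell, to 24.7, 24.1 and 22.2 CPM (log2 -0.51, SE 0.12, adjusted p 0.0136), while 0.355% of genes fell and 0.945% rose. That call ended without low replicate 1 or 3 or medium replicate 2 or 3 (adjusted p 0.0525 to 0.125). MUC2 (log2 -0.58, adjusted p 0.186), ATOH1 (-0.46, adjusted p 0.0699), AGR2 (-0.23, adjusted p 0.185) and REG4 (-0.22, adjusted p 0.399) did not pass, although the medium-dose libraries lay under every low-dose library in each. Without the 4 libraries that stood apart, none of them of this extract, MUC2, ATOH1 and AGR2 passed with log2 values of -0.58, -0.47 and -0.24, which made 4 members. ATOH1 also passed without medium replicate 3 alone (adjusted p 0.0271).

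With fresh ginger, ginger, Pinelliae Tuber and Zizyphi Fructus no member and 0% of genes passed between medium and low dose by edgeR. DESeq2 called 0 members in each and 0, 1, 0 and 1 genes. At an unadjusted p under 0.05 there were 1020, 438, 335 and 386 genes, and of the members REG4 and CREB3L1 with fresh ginger only.

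The high dose of each extract and wortmannin were also set against vehicle. These 7 comparisons share the 3 vehicle libraries, so their values stand side by side and are not independent of each other. With Coptidis Rhizoma high 9 members were lower, among 27.1% of genes lower and 26.6% higher. With Scutellariae Radix high 7 were lower (the 6 named above and TFF3), among 10.6% lower and 9.72% higher. With fresh ginger high 6 were lower (AGR2, REG4, ATOH1, TFF3, CREB3L1 and SPINK4), among 0.771% lower and 1.31% higher. With ginger high 3 were lower (AGR2, REG4 and CREB3L1), among 0.247% lower and 0.542% higher. With Pinelliae Tuber high none passed by edgeR (3 at an unadjusted p under 0.05, and CREB3L1 by DESeq2, as well as by edgeR without Pinelliae Tuber high replicate 1, at an adjusted p of 0.0256), among 0.187% of genes. With Zizyphi Fructus high none passed by edgeR or DESeq2 (CREB3L1 at an unadjusted p under 0.05), among 0.0181% of genes.

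CREB3L1 was at 205, 198 and 199 CPM in vehicle. Its vehicle mean of 201 CPM lay above the mean of every extract group at every dose, the nearest being fresh ginger low at 192 CPM. At the high dose its log2 difference from vehicle was -1.22 with Scutellariae Radix, -0.57 with fresh ginger, -0.51 with ginger and -0.44 with Coptidis Rhizoma. REG4, TFF3 and SPINK4 had their highest group mean in vehicle. Vehicle replicate 1 held 248 CPM of AGR2 and 31.5 CPM of REG4, against 214 and 214 CPM and 24.4 and 23.6 CPM in the other vehicle libraries. Without vehicle replicate 1 the AGR2 and REG4 calls with ginger ended (adjusted p 0.281 and 0.191), and so did the ATOH1 and TFF3 calls with fresh ginger (adjusted p 0.143 and 0.207). AGR2 with ginger also lost its call without ginger high replicate 1 (adjusted p 0.159) or 3 (0.138), and REG4 without ginger high replicate 3 (0.0818). With fresh ginger, ATOH1 lost it without high replicate 2 or 3 (0.0681 and 0.0898), without the 4 libraries that stood apart (0.0964) and with the compared libraries alone (0.124), TFF3 without vehicle replicate 2 or any high replicate (0.0553 to 0.0899), and SPINK4, which had 8, 1 and 4 counts at the high dose, without vehicle replicate 2 or high replicate 2 or 3 (0.0619 to 0.125). With the 4 libraries that stood apart left out, MUC2 (log2 -0.60, adjusted p 0.00647) and SPDEF (higher, log2 0.25, adjusted p 0.0442) passed against vehicle with Scutellariae Radix as well.

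With wortmannin FCGBP and CREB3L1 rose and AGR2 fell against vehicle, among 10.8% of genes lower and 9.72% higher. FCGBP was at 28.5, 32.2 and 30.5 CPM in vehicle and at 40.9, 38.0 and 42.2 CPM with wortmannin (log2 0.40, SE 0.12, adjusted p 0.0132). CREB3L1 reached 252, 237 and 227 CPM, its highest group mean (log2 0.25, SE 0.07, adjusted p 0.00763). AGR2 went to 164, 175 and 168 CPM (log2 -0.41, SE 0.08, adjusted p 0.000114). None of these groups overlapped. FCGBP lost its call without vehicle replicate 1 (adjusted p 0.0814) or wortmannin replicate 3 (0.0604), and CREB3L1 without wortmannin replicate 1 (0.0559). MUC2 was at 35.2, 40.2 and 34.6 CPM and did not pass (log2 0.13, 95% interval -0.26 to 0.52), nor did ATOH1 (0.07, -0.19 to 0.32). The median of the members was -0.10 and of all genes 0.00. Of 10 mitosis genes 8 fell with wortmannin, while 3 of 11 other mucins rose and none fell and 3 of 6 enteroendocrine genes fell. Of 3 Paneth cell genes 2 rose (summed level 2365 to 2425 CPM, against 1749 to 1972 CPM in vehicle). That sum is nearly all LYZ (mean over all libraries 1760 CPM, against 0.704 for PRSS2 and 0.276 for PLA2G2A). Of the 8 Paneth cell markers listed, 5 averaged under 0.1 CPM, among them the defensins DEFA5 and DEFA6. Of 3 tuft cell genes 2 rose (5.23 to 5.73 CPM, against 2.69 to 3.11 CPM). Of 9 absorptive enterocyte genes 2 rose and 1 fell (553 to 575 CPM, against 456 to 473 CPM, a sum mostly of KRT20 and VIL1). Of 21 endoplasmic reticulum genes 3 rose and 6 fell. The part of these in the members' values was not tested.

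**Figure D4:**
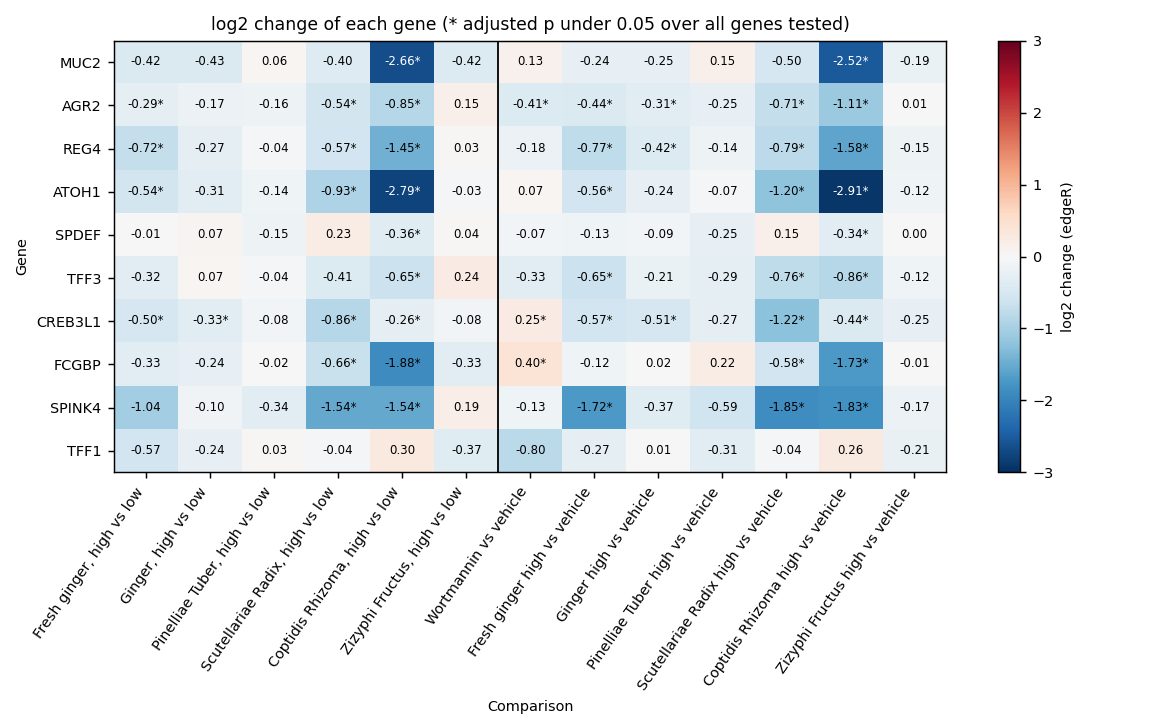
log2 change of each of the 10 genes (rows) in the 6 high-against-low comparisons and the 7 comparisons with vehicle (columns, split by the line); blue is lower, red is higher, and an asterisk marks an adjusted p under 0.05 over all genes tested. The Coptidis Rhizoma columns hold asterisks for all genes but TFF1, with values down to -2.79 and -2.91 for ATOH1, and the Zizyphi Fructus columns hold none.

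To see which changes differed from those of the remaining extracts, each high-against-low change was set against the mean of the other 5. For Coptidis Rhizoma 7 members were lower than that mean, against 48.4% of genes called in either direction: ATOH1 by 2.40 on the log2 scale, MUC2 by 2.34, FCGBP by 1.57, REG4 by 1.14, AGR2 by 0.65, TFF3 by 0.55 and SPDEF by 0.40. CREB3L1 did not pass against that mean (0.11, 95% interval -0.05 to 0.26). The mean includes Scutellariae Radix, with which CREB3L1 fell more in the direct comparison above. The TFF3 call ended without Coptidis Rhizoma low replicate 2 or high replicate 3 (adjusted p up to 0.0827). For Scutellariae Radix, against 11.2% of genes, CREB3L1 (-0.61, SE 0.08, adjusted p 7.75e-08) and AGR2 (-0.28, SE 0.09, adjusted p 0.0265) were lower and SPDEF higher (0.31, SE 0.10, adjusted p 0.0371). The CREB3L1 call held in each alternative, whereas those of AGR2 (adjusted p up to 0.118) and SPDEF (up to 0.155) ended without high replicate 2 or low replicate 3, that of AGR2 also without high replicate 3 and that of SPDEF also without low replicate 1 or 2.

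The mean of the other 5 includes Coptidis Rhizoma for the remaining extracts, and the values there carry its large changes. For Zizyphi Fructus 6 members were higher than that mean, against 10.5% of genes (AGR2, REG4, ATOH1, TFF3, CREB3L1 and SPINK4), of which TFF3 (adjusted p 0.591) and SPINK4 (0.428) were not called without the 4 libraries that stood apart, nor without many single libraries. Without those 4, FCGBP passed as higher for Zizyphi Fructus (0.49, adjusted p 0.00061) and ginger (0.50, adjusted p 0.00107), and AGR2 for Pinelliae Tuber (0.24, adjusted p 0.0031). For Pinelliae Tuber 5 were higher (MUC2, REG4, ATOH1, CREB3L1 and FCGBP), against 3.77% of genes, and CREB3L1 lost the call without Pinelliae Tuber high replicate 1 (adjusted p 0.0857). For ginger ATOH1 was higher (0.58, adjusted p 0.0167), against 2.89% of genes, and lost the call without ginger high replicate 1 or 3 or low replicate 3 (adjusted p 0.0616 to 0.0822) and with no filter on low counts (0.0648). For fresh ginger no member passed by edgeR or DESeq2, against 3.28% of genes, and REG4, CREB3L1 and FCGBP had an unadjusted p under 0.05.

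The members were also compared by the shape of their levels over the 20 groups, as Pearson correlations of group-mean log2 CPM. These are descriptions without a test, since groups share sets, doses and the large Coptidis Rhizoma change. MUC2 and FCGBP had r of 0.97 over the 20 groups and 0.91 without Coptidis Rhizoma high, and ATOH1 and FCGBP 0.97 and 0.86. SPDEF followed none of the others closely: its r with MUC2 was 0.27 over the 20 groups and -0.64 without Coptidis Rhizoma high. CREB3L1 had r of 0.36 with MUC2 over the 20 groups and 0.69 without Coptidis Rhizoma high, and 0.53 and 0.86 with ATOH1. The genes most like each member were sought over all 20 groups only, so the r values that follow can carry the large Coptidis Rhizoma change. The genes most like MUC2 were the bicarbonate cotransporter SLC4A4 (r 0.98), the non-coding OLMALINC (0.98) and HSPG2, which encodes perlecan (0.97). FCGBP was most like ANKS4B (0.98), MUC2 (0.97) and GDA (0.97), REG4 like DEGS2 (0.96), RASL11A (0.95) and HES6 (0.95), and AGR2 like CD24 (0.95), ID2 (0.95) and PDCD6 (0.94). CREB3L1 was most like ATP6V1B1 (0.95), AFAP1L2 (0.95) and CTDSPL (0.95), TFF3 like CYSTM1 (0.94), THOC6 (0.91) and GCHFR (0.90), and SPDEF like AP1S1 (0.87), CORO2A (0.87) and CD9 (0.81).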

How the data were processed

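The members, lists and tests were chosen with earlier results of these data known. RNA of 60 HT29 libraries was sequenced, and per the submitters' processing notes the tools named are STAR 2.7.3a and RSEM 1.3.3, besides FastQC 0.11.9 and Trim Galore 0.6.5, and the build named is GRCh38. The annotation release is not given in the sources used here. The authors deposited RSEM expected counts per gene, of which 8.75% were not whole, and these were rounded. The table's 210 other columns were not used.

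Identifiers were matched to symbols for 56558 of 60675 genes, and positions come from GENCODE 29 on GRCh38 (57055 genes). Promoter sequences are RefSeq's, build GRCh38.p14. The filterByExpr filter left 16608 genes. All 20 groups entered 1 edgeR 4.0.16 fit (R 4.3.3) with TMM scaling and robust quasi-likelihood tests (40 residual degrees of freedom between libraries). P-values were adjusted by Benjamini-Hochberg over all genes tested in each comparison, and a gene was called at an adjusted p under 0.05. Standard errors were taken from the log2 change and its F statistic and are approximate, as are the 95% intervals. Up to 3 genes per list with the smallest p over the 6 high-against-low comparisons were picked for naming. Not all of these are printed, and the genes added after their values were seen are marked as such. Genes like a member needed a mean of at least 5 CPM for the member and used a prior count of 2. Libraries held 11.1 to 34.4 M counts, so SPINK4 and TFF1 rest on few reads. No replicate pair agreed within sampling noise (lowest chi-square per gene 2.24). Alternatives were DESeq2 1.42.0, its size factors, the replicate number as a block, all genes with a count kept, a linear trend on log dose (high against low only), the compared libraries alone, the 4 libraries that stood apart left out, and each library left out in turn. Plain library totals were tried for levels only. The scripts were tested on simulated counts, with the same spread for all genes and few changed genes. These data are less simple, so that test checks the code only.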

Additional observations from a re-analysis of the deposited data

Results flagged for a closer look

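For 7 members the high-against-low change differed between Scutellariae Radix and Coptidis Rhizoma by a test of the difference itself (edgeR, adjusted p under 0.05), and this is why they are listed here. The Scutellariae Radix change minus the Coptidis Rhizoma change was, on the log2 scale, 2.26 for MUC2, 1.86 for ATOH1, 1.22 for FCGBP, 0.88 for REG4, 0.59 for SPDEF and 0.31 for AGR2. It was -0.59 for CREB3L1, the 1 member that fell more with Scutellariae Radix. The doses of the extracts differ, with those of Coptidis Rhizoma set from its IC20, and across all genes 38.8% passed the same test. Groups of 3 libraries were not tested for single outlying samples.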

How the results depend on the processing

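Of 81 member results called, 58 were called in every alternative fit run for them (an adjusted p that DESeq2 gave as NA is not counted), 23 lost the call in at least 1, and 0 changed sign. With the compared libraries alone, the number of members called from low to high dose went from 4 to 1 with fresh ginger, ginger against vehicle from 3 to 1, Scutellariae Radix against the other 5 extracts from 3 to 1, and Coptidis Rhizoma medium against low from 1 to 3. Without the filter on low counts it became 2 for ginger and 2 for Zizyphi Fructus high against low, 2 for Pinelliae Tuber and 1 for Zizyphi Fructus against vehicle, 3 for Coptidis Rhizoma medium against low, 2 for fresh ginger and 2 for ginger against the other 5 (for ginger without ATOH1, the 1 member called with the filter), and 1 for fresh ginger minus ginger. Without the 4 libraries that stood apart it became 3 for ginger high against low, 4 for Coptidis Rhizoma medium against low and 2 for ginger against the other 5. DESeq2 gave 1 for Pinelliae Tuber against vehicle.

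With single libraries left out, members called ranged from 2 to 4 for fresh ginger, 0 to 1 for ginger and 0 to 3 for Zizyphi Fructus high against low, from 3 to 6, 1 to 3 and 0 to 1 for fresh ginger, ginger and Pinelliae Tuber against vehicle, from 1 to 3 and 0 to 1 for Scutellariae Radix and Coptidis Rhizoma medium against low, from 0 to 1, 0 to 3 and 1 to 3 for fresh ginger, ginger and Scutellariae Radix against the other 5, and from 0 to 1 for fresh ginger minus ginger. Coptidis Rhizoma high against low stayed at 9.

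By the rule used, replicate numbers did not pair the libraries. In 0 of 19 comparisons were all 3 correlations of same-numbered libraries above 0.1 (range -0.37 to 0.214). That rule does not exclude weaker pairing. With the replicate block the members called became 1 for Pinelliae Tuber against vehicle (31 genes called without the block, 47 with it), and the block changed no other count of members by more than 1.5 times.

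Counts of all genes called moved by over 1.5 times in several comparisons. High against low, fresh ginger called 298 genes, but 23 with the compared libraries alone, 559 without the filter and 116 to 1305 with single libraries left out. Ginger called 152, and then 34, 436 and 63 to 154. Pinelliae Tuber called 7, but 89 without the filter and 15 without the 4 libraries. Scutellariae Radix called 2714, but 4141 with the compared libraries alone. Zizyphi Fructus called 8, but 0 with the compared libraries alone, 1982 without the filter, 1185 by DESeq2, 3 without the 4 libraries and 2 to 4375 with single libraries left out. Against vehicle, the compared libraries alone and no filter gave 74 and 1113 genes for fresh ginger (346 in the main result, 548 by DESeq2), 10 and 242 for ginger (131; 75 without the 4 libraries), 9 and 611 for Pinelliae Tuber (69 by DESeq2) and 0 and 97 for Zizyphi Fructus (3; 12 by DESeq2). Medium against low, no filter gave 140, 57, 74 and 63 genes for fresh ginger, ginger, Pinelliae Tuber and Zizyphi Fructus (0 each in the main result). Without the 4 libraries, Scutellariae Radix went from 556 to 971 and Coptidis Rhizoma from 216 to 367 (482 with the compared libraries alone). Against the other 5, fresh ginger went from 544 to 1089 without the filter, 299 without the 4 libraries and 317 with the compared libraries alone, Pinelliae Tuber from 626 to 968 and Zizyphi Fructus from 1744 to 576 without the 4 libraries (945 with the compared libraries alone). Fresh ginger minus ginger went from 0 to 602 without the filter. With single libraries left out, the lowest and highest counts against vehicle were 2109 (without vehicle replicate 1) and 3295 for wortmannin (3414 in the main result), 128 (without vehicle replicate 1) and 449 for fresh ginger, 66 (without ginger high replicate 2) and 93 for ginger, 12 and 55 for Pinelliae Tuber (without its high replicates 3 and 1) and 0 and 17 for Zizyphi Fructus. Scutellariae Radix medium against low ran from 306 (without low replicate 3) to 438. Against the other 5, fresh ginger ran from 174 to 1978 (without its low replicates 1 and 2), ginger from 228 to 1005 (480 in the main result; without replicate 1 of the ginger high dose and replicate 3 of the Zizyphi Fructus high dose) and Zizyphi Fructus from 418 to 4321 (without its high replicates 3 and 1). Fresh ginger minus ginger reached 1053 without fresh ginger low replicate 2. The shares of all genes printed beside the members' counts move with these. The cause of these shifts was not tested. DESeq2's size factors moved the median of all genes by at most 0.0114 on the log2 scale. Depth limits SPINK4 and TFF1, at 1 to 29 counts a library.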
